A study of Homo sapiens with 24 samples.

Results

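Treatment of MDA-MB-436 cells with the MDM2 PROTAC YX-2-30 was compared with its DMSO vehicle, using the 6 libraries that the labels assign to these groups in this line, 3 with PROTAC and 3 with DMSO, of 24 in the whole study. MDA-MB-436 is an established line from a triple-negative breast cancer, a tumour without the hormone receptors and ERBB2 amplification that other breast cancers depend on. Cultures were kept in DMEM with serum, and their total RNA was sequenced. The other 18 libraries hold the same PROTAC and vehicle in MDA-MB-231, another triple-negative line, and an MDM2 or non-targeting short hairpin RNA (shRNA) in either line, with 3 libraries a group. The labels give neither the dose nor the duration of the PROTAC. They are also silent on whether the 3 libraries of a group are separate cultures, so the p-values reflect the spread among libraries, which may be technical.

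MDM2 is a RING-type ubiquitin ligase, an enzyme that tags other proteins for destruction by the proteasome and that restrains transcription factors which halt the cell cycle or trigger cell death. A PROTAC, or proteolysis-targeting chimera, is a small molecule with an arm for its target and an arm for a ubiquitin ligase such as cereblon or VHL, and it brings the target to that ligase for destruction. It acts on the protein and not directly on the transcript of its target. CDKN1A (p21) inhibits cyclin-dependent kinases. When those kinases are inhibited, RB-family proteins together with E2F factors repress genes of DNA replication through E2F sites and genes of mitosis through a short promoter element, the cell cycle genes homology region (CHR).

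RNA levels are given as counts per 1e6 (CPM, deposited counts divided by the scaled library total) in libraries 1, 2 and 3 of a group. Changes are log2 ratios of PROTAC over DMSO ± their standard error, and a gene was called when its edgeR adjusted p was under 0.05. In RNA from whole cultures, fewer cells of a kind and less RNA per cell cannot be told apart. The PROTAC libraries held 63888877, 116413933 and 33413988 counts, and the DMSO libraries held 49588824, 58968793 and 64610580. The third PROTAC library, the shallowest of the 6, stood apart: it lay at 150.2 on the second principal component, where the other 5 lay between -33.9 and 14.3, and 427 of 11723 protein-coding genes at 3 CPM or more (3.64%) differed over 2-fold from the other PROTAC libraries, against 289 and 283 genes for those libraries. Mitochondrial transcripts took 5.48 to 5.50% of counts in PROTAC libraries, against 6.78 to 6.96% in DMSO libraries. All 10 markers listed for basal-like, mesenchymal breast lines reached 1 CPM, with summed levels of 2478 to 2621 CPM in PROTAC libraries and 3925 to 4027 CPM in DMSO libraries. The line is labelled epithelial, and the epithelial keratin gene KRT8 reached 275, 295 and 220.1 CPM with PROTAC and 462, 497 and 522 CPM with DMSO, whereas the adhesion gene CDH1, which defines epithelia, stayed under 1 CPM in every library. The estrogen receptor gene ESR1, the leukocyte gene PTPRC and the fibroblast genes DCN and LUM were at or near 0 throughout.

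**Figure D1:**
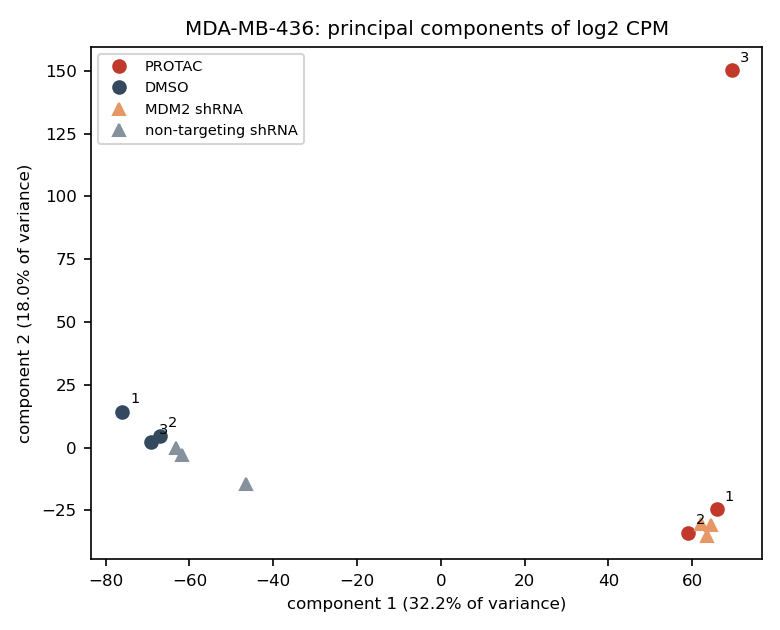
Principal components of log2 CPM over the 12 MDA-MB-436 libraries; points are libraries, numbers are the replicates of the PROTAC and DMSO groups, and the axes give component scores. Component 1 holds 32.2% of the variance and has the PROTAC and MDM2 shRNA libraries on its right and their controls on its left; component 2 holds 18.0% and sets the third PROTAC library at 150.2, apart from all others.

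Of 22663 genes tested, 7334 (32.4%) were called, 3916 (17.3%) higher and 3418 (15.1%) lower with PROTAC. By size, 1689 genes (7.45%) were at least 2-fold higher and 635 (2.8%) at least 2-fold lower. For 9591 genes (42.3%) every PROTAC library lay on the same side of every DMSO library. Among protein-coding genes 20.6% were called higher and 20.1% lower, and among other genes 10.3% and 4.55%. The median change over all genes tested was 0.04 on the log2 scale. Scaling by library totals alone moved this median to 0.21 and made 70.9% of called genes higher, against 53.4% with the scaling used here, so changes are relative to the scaled median. The fit took its spread from all 12 MDA-MB-436 libraries. With only the 6 libraries compared here, 2980 of 20541 genes tested were called higher and 2404 lower. Among 33 gene lists, 12 had at least 50% of their tested members called in a single direction, and 9 did with those 6 libraries alone. Genes of DNA replication and recombination, NF-kB and immediate-early genes were called mostly higher. Mitotic, heat shock, lipid synthesis, NRF2, glycolytic, matrix and mitochondrially encoded genes were called mostly lower.

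**Figure D2:**
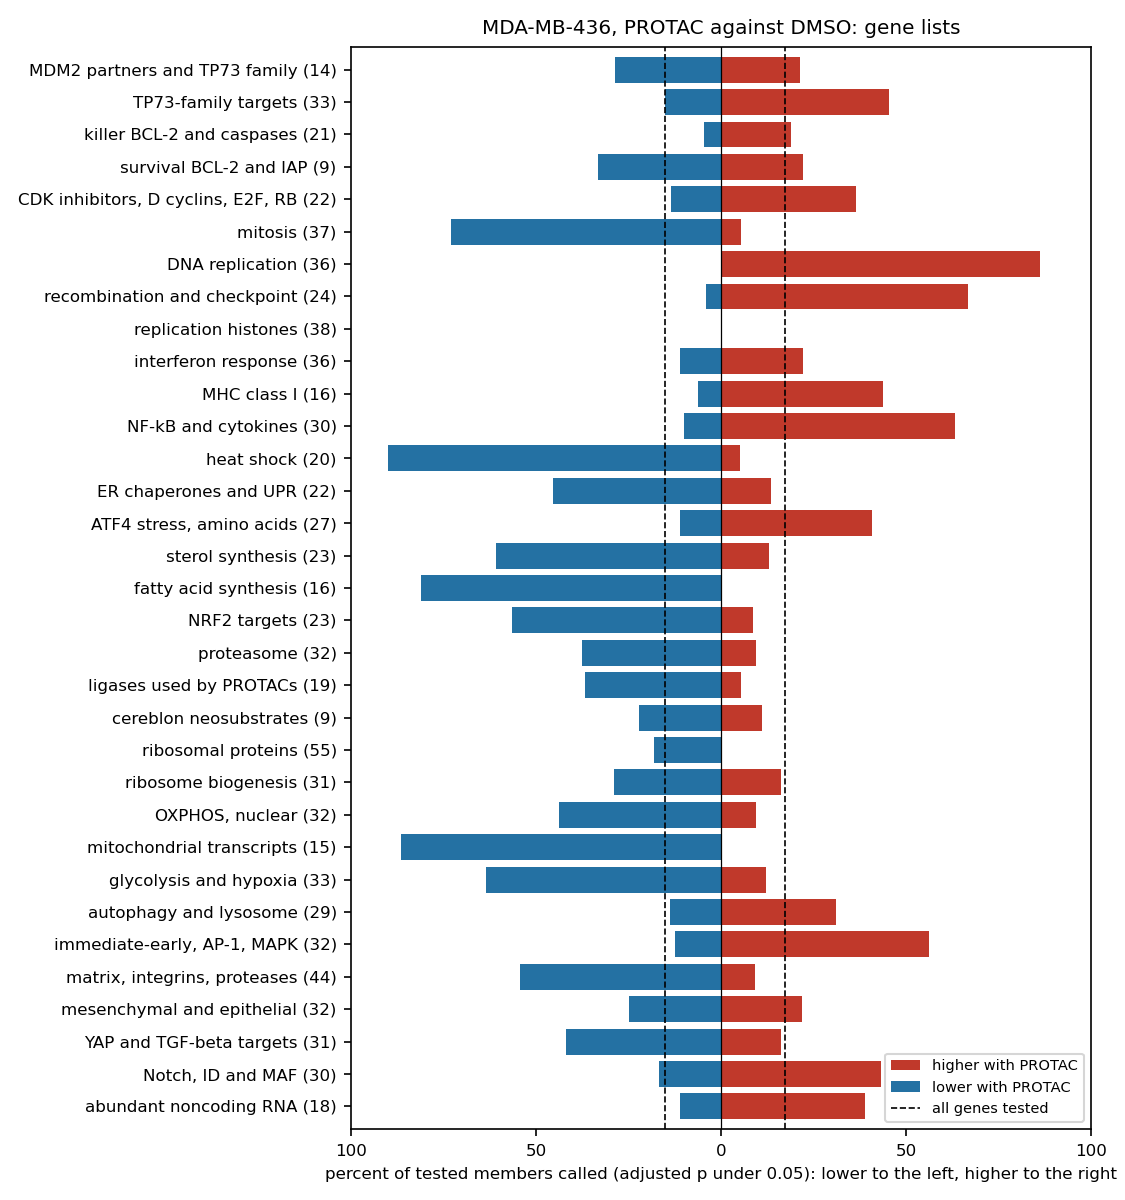
Share of each list's tested members called higher (right) or lower (left) with PROTAC; numbers in brackets are the members tested, and dashed lines give the shares over all genes tested, 17.3% higher and 15.1% lower. DNA replication has the longest bar to the right, with 31 of 36 members, and heat shock the longest to the left, with 18 of 20.

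MDM2 (ENSG00000135679, chromosome 12, 68808176 to 68850686; GRCh38, GENCODE 29), the transcript of the PROTAC's target, stood at 23.0, 25.4 and 22.1 CPM in PROTAC libraries, against 41.4, 30.3 and 36.4 CPM in DMSO libraries. The groups did not overlap, with every PROTAC library below every DMSO library. The change of -0.61 ± 0.22 missed the threshold (edgeR adjusted p = 0.0573), and it passed under 3 of 18 alternatives that could be fitted, such as DESeq2. The gene shares exons with another annotated gene and overlaps a gene on the other strand. MDM4, the partner of MDM2 in its ligase complex, varied within both groups, with 47.7, 9.70 and 78.1 CPM with PROTAC and 9.62, 7.51 and 33.02 CPM with DMSO, and was not called (1.43 ± 1.00, edgeR adjusted p = 0.317). TP73 (ENSG00000078900, chromosome 1, 3652520 to 3736201), a transcription factor that MDM2 binds, reached 11.2, 13.9 and 13.9 CPM in PROTAC libraries, against 3.60, 4.79 and 2.54 CPM in DMSO libraries. Every PROTAC library was above every DMSO library, a rise of 1.84 ± 0.27 (edgeR adjusted p = 0.000309). Of 14 partners of MDM2 and members of the TP73 family, 3 were called higher (21.4%) and 4 lower (28.6%). Over all genes tested the shares were 17.3% and 15.1%. The list median of -0.12 turned to 0.04 with scaling by library totals, where 5 were called higher. PPP1R13L, an inhibitor of the TP73 family, rose by 0.83 ± 0.10. The kinase gene HIPK2 (-0.84 ± 0.11) and the deubiquitinase gene USP7 (-0.58 ± 0.10), whose product removes ubiquitin from MDM2, were lower with PROTAC. TP73 and PPP1R13L have an annotated antisense neighbour. Whether reads were counted by strand is not given in the sources used here, so such genes, named below, are uncertain.

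Stress-response genes that the TP73 family of factors can activate moved in both directions. Of 33 tested, 15 were called higher and 5 lower, with a median of 0.20. GADD45A, which binds cyclin-dependent kinase 1 and slows entry into mitosis, had 1043, 961 and 900.2 CPM in PROTAC libraries, against 111, 118 and 111 CPM in DMSO libraries. Its libraries were separated by a wide gap (change 3.09 ± 0.07, edgeR adjusted p = 3.27e-10). CDKN1A (ENSG00000124762, chromosome 6, 36676460 to 36687339) had 38.2, 39.8 and 31.2 CPM with PROTAC, against 4.68, 5.47 and 7.46 CPM with DMSO. Each PROTAC library held more than 4 times the highest DMSO level, a change of 2.63 ± 0.16 (edgeR adjusted p = 6.3e-07). AEN, an exonuclease of apoptotic cells (1.21 ± 0.11), DDB2, a sensor of ultraviolet damage (1.28 ± 0.14), and FAS, a death receptor (1.43 ± 0.42), also rose. PLK2, a polo-like kinase, fell to 48.1, 34.1 and 30.8 CPM in PROTAC libraries, against 84.7, 79.0 and 85.9 CPM in DMSO libraries (change -1.14 ± 0.13). CDKN1A and FAS overlap a gene on the other strand.

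Of 21 killer BCL-2 members and caspases, genes of the apoptosis machinery, 4 were called higher, 1 lower and 16 not, with a median of 0.04. The share called higher, 19%, is near the 17.3% over all genes. The 4 that rose encode BH3-only proteins, which bind and neutralise survival members: HRK (1.52 ± 0.12), BIK (1.17 ± 0.19), BBC3 (1.15 ± 0.19) and BMF (0.77 ± 0.11). HRK stood at 48.6, 53.4 and 42.7 CPM with PROTAC and 15.1, 18.6 and 16.7 CPM with DMSO, with no overlap. CASP6, an executioner caspase, was the member that fell (-0.64 ± 0.08). BAX, which permeabilises mitochondria, was at 0.02 and was not called. With scaling by library totals 7 members were called higher. Among 9 survival genes tested, BIRC3 (1.41 ± 0.15), an inhibitor of apoptosis induced by NF-kB, and BCL2 (0.67 ± 0.12) were higher, and BIRC5, MCL1 (-0.28 ± 0.05) and BCL2L1 (-0.28 ± 0.07) lower, with a list median of -0.04. This median was 0.14 with scaling by library totals, -0.25 without the third PROTAC library, 0.36 without the first, 0.22 without the second DMSO library and -0.26 without the third. With that scaling 0 of the 9 were called lower, and without the first DMSO library 1 was, with BCL2L1 no longer called. CASP6, BMF, BBC3 and BCL2L1 overlap a gene on the other strand, and MCL1 and BBC3 share exons with another gene.

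Several regulators of the step from G1 to S phase were higher. E2F2, an activating E2F, had 94.5, 109 and 91.8 CPM in PROTAC libraries, against 19.4, 18.6 and 17.3 CPM in DMSO libraries. The groups lay far apart (change 2.42 ± 0.08, edgeR adjusted p = 9.1e-09). E2F1 rose by 1.64 ± 0.10, and the repressors E2F8 and E2F7, which E2F1 induces, by 1.82 ± 0.11 and 1.44 ± 0.09. CCND1, the D cyclin that starts RB phosphorylation, fell to 119.8, 125 and 128 CPM in PROTAC libraries, against 249.9, 228 and 241 CPM in DMSO libraries (change -0.95 ± 0.05, edgeR adjusted p = 3.63e-07). Of 22 CDK inhibitors, D cyclins, E2F and RB-family genes, 8 were called higher and 3 lower, with a median of 0.20. RB1, the retinoblastoma gene, rose by 1.47 ± 0.17 and its relative RBL1 by 1.26 ± 0.09, while RBL2 fell (-0.73 ± 0.08). The CDK inhibitors called besides CDKN1A were CDKN2B, which rose by 0.49 ± 0.11, and CDKN1B, which rose by 0.24 ± 0.06. E2F8 and CCND1 overlap a gene on the other strand.

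Mitotic genes were lower with PROTAC: of 37 tested, 27 were called lower, 2 higher and 8 not, with a median of -0.47. With scaling by library totals 17 were called lower and 4 higher. KIF20A, a kinesin needed for cytokinesis, had 36.4, 41.3 and 35.4 CPM in PROTAC libraries, against 134, 131 and 136 CPM in DMSO libraries, a change of -1.82 ± 0.08. CCNB1, the B cyclin that drives entry into mitosis, had 101, 94.8 and 82.3 CPM with PROTAC, against 262, 288 and 279 CPM with DMSO. No library of either group came near the other group (change -1.57 ± 0.08, edgeR adjusted p = 1.13e-07). PLK1, the polo-like kinase of spindle assembly, had 44.3, 42.9 and 55.5 CPM with PROTAC, against 126, 124 and 121 CPM with DMSO (change -1.38 ± 0.09). BUB1 of the spindle checkpoint changed by -1.20 ± 0.07, the Aurora kinase gene AURKA by -1.15 ± 0.23, and CDC20, the activator of the anaphase-promoting complex, by -1.04 ± 0.07. The exceptions were KIF2C (0.47 ± 0.06), a microtubule depolymerase, and NUSAP1 (0.65 ± 0.06), a spindle protein, which rose. KIF20A, PLK1 and KIF2C overlap a gene on the other strand, and NUSAP1 shares exons with another gene.

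Promoters of 31 of the mitotic genes were in RefSeq (GRCh38.p14, 250 bases before to 50 after the transcript start). The CHR letters TTTGAA, read on both strands, stood in 23 of 31 (74.2%), against 18.2% of 27305 genes with promoters of the same length, and CCAAT in 25 of 31 (80.6%), against 39.7%. A gene counted, here and for the elements below, when any of its promoters held the letters. These matches describe letters, not bound sites. Of 25 matched genes called lower, 20 held the CHR letters, as did 3 of the 6 others. The promoters of PLK1 (chr16:23678639-23678938, plus strand) and CKS2 (chr9:89310945-89311244, plus strand), which binds cyclin-dependent kinases, are printed 5′ to 3′ on the gene's strand because each carries the letters 29 bases before the start; capitals mark them, in either orientation.
PLK1: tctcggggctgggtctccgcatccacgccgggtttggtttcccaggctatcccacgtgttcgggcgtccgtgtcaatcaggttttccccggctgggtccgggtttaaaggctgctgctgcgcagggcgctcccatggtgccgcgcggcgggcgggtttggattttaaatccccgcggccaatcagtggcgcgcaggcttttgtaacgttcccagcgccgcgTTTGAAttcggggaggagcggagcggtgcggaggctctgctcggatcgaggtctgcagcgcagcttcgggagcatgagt
CKS2: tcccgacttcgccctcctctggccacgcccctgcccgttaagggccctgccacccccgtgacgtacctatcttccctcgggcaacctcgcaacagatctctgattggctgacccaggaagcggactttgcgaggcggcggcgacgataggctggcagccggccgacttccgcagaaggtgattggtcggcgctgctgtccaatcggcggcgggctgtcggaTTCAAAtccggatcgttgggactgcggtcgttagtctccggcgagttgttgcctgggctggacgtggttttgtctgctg
CKS2 itself had 114, 117 and 119 CPM in PROTAC libraries, against 197, 207 and 196 CPM in DMSO libraries, with no overlap (change -0.78 ± 0.06).

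Most genes of DNA replication were higher: of 36 tested, 31 were called higher, 0 lower and 5 not, with a median of 0.66. Licensing factors, which load the MCM helicase at origins, were among them. CDC6 had 241, 256 and 244 CPM in PROTAC libraries, against 110.5, 108 and 108 CPM in DMSO libraries (change 1.18 ± 0.05, edgeR adjusted p = 7.26e-08), and CDT1 had 227, 211 and 155 CPM with PROTAC, against 64.5, 70.7 and 69.9 CPM with DMSO (change 1.53 ± 0.12). In both genes the lowest PROTAC library exceeded the highest DMSO library by over 2-fold. The clamp loader subunit RFC2 changed by 1.51 ± 0.08, the polymerase alpha subunit POLA2 by 1.33 ± 0.09, the helicase activator CDC45 by 0.97 ± 0.07 and the helicase subunits MCM7 and MCM2 by 0.90 ± 0.08 and 0.89 ± 0.08. MCM6 (-0.02), UHRF1 (-0.07), RRM1 (0.08) and MCM3 (0.19) were among the 5 not called. MCM7, MCM2 and RRM1 overlap a gene on the other strand, and POLA2 shares exons with another gene.

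The E2F letters TTTCCCGC stood in 10 of 32 matched replication genes (31.2%), against 1.98% of all genes with promoters. They were in 8 of the 28 called higher and in 2 of the 4 others. LIG1, the ligase that joins Okazaki fragments (chr19:48170295-48170594, minus strand), and CDT1 (chr16:88803539-88803838, plus strand) are shown as examples with the letters in capitals, in either orientation.
LIG1: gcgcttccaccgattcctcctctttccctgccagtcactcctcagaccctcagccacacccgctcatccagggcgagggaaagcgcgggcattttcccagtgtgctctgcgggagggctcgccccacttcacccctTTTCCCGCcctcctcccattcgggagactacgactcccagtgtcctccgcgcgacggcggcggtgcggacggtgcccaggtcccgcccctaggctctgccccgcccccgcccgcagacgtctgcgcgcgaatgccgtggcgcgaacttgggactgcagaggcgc
CDT1: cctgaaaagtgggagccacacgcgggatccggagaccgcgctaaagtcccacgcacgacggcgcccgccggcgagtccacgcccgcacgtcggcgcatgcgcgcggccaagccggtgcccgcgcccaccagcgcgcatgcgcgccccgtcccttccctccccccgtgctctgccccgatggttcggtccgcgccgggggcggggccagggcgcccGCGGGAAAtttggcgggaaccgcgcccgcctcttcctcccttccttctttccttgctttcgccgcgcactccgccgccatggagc
LIG1 had 109, 114 and 109 CPM in PROTAC libraries, against 69.8, 65.9 and 66.1 CPM in DMSO libraries (change 0.72 ± 0.05), and overlaps a gene on the other strand.

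Genes of homologous recombination and the S-phase checkpoint followed the replication list, with 16 of 24 called higher, 1 lower and a median of 0.55. EXO1, which resects broken DNA ends, had 155, 163 and 183 CPM with PROTAC, against 55.8, 61.4 and 53.8 CPM with DMSO, with a wide gap (change 1.55 ± 0.12). XRCC3 (1.06 ± 0.09), which aids strand exchange, and the helicase gene BRIP1 (1.05 ± 0.11) rose, and the checkpoint kinase gene CHEK2 (-0.27 ± 0.09) was the member called lower, though 0 were with scaling by library totals or without the third PROTAC, the first DMSO or the third DMSO library. Of 38 replication-dependent histone genes tested, none was called in either direction with edgeR, with a median of 0.14. PROTAC values lay all on the same side of the DMSO values for 5 of the 38, where 42.3% of all genes tested had such groups. H4C8 came closest, with 1.19, 1.49 and 3.71 CPM in PROTAC libraries and 0.809, 1.25 and 0.927 CPM in DMSO libraries (edgeR adjusted p = 0.0655). At an unadjusted p under 0.05, edgeR had 4 higher and 2 lower. DESeq2 called 1 gene, H4C8 (adjusted p = 0.0397), limma voom called 0, and 4 histone genes were called higher with scaling by library totals. With all 24 libraries in the fit edgeR called 6 higher, among them H4C8 (adjusted p = 0.00963) and H2BC5 (adjusted p = 0.00918). Without the third PROTAC library 1 was called, H2BC5 (edgeR adjusted p = 0.0123); leaving out the first PROTAC library gave 1 higher and 1 lower, and leaving out the second PROTAC or the second DMSO library gave 1 higher. These transcripts mostly lack poly(A) tails, copies of a family are alike in sequence, and 2 entries of the list had no matching identifier. XRCC3 and CHEK2 overlap a gene on the other strand.

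**Figure D3:**
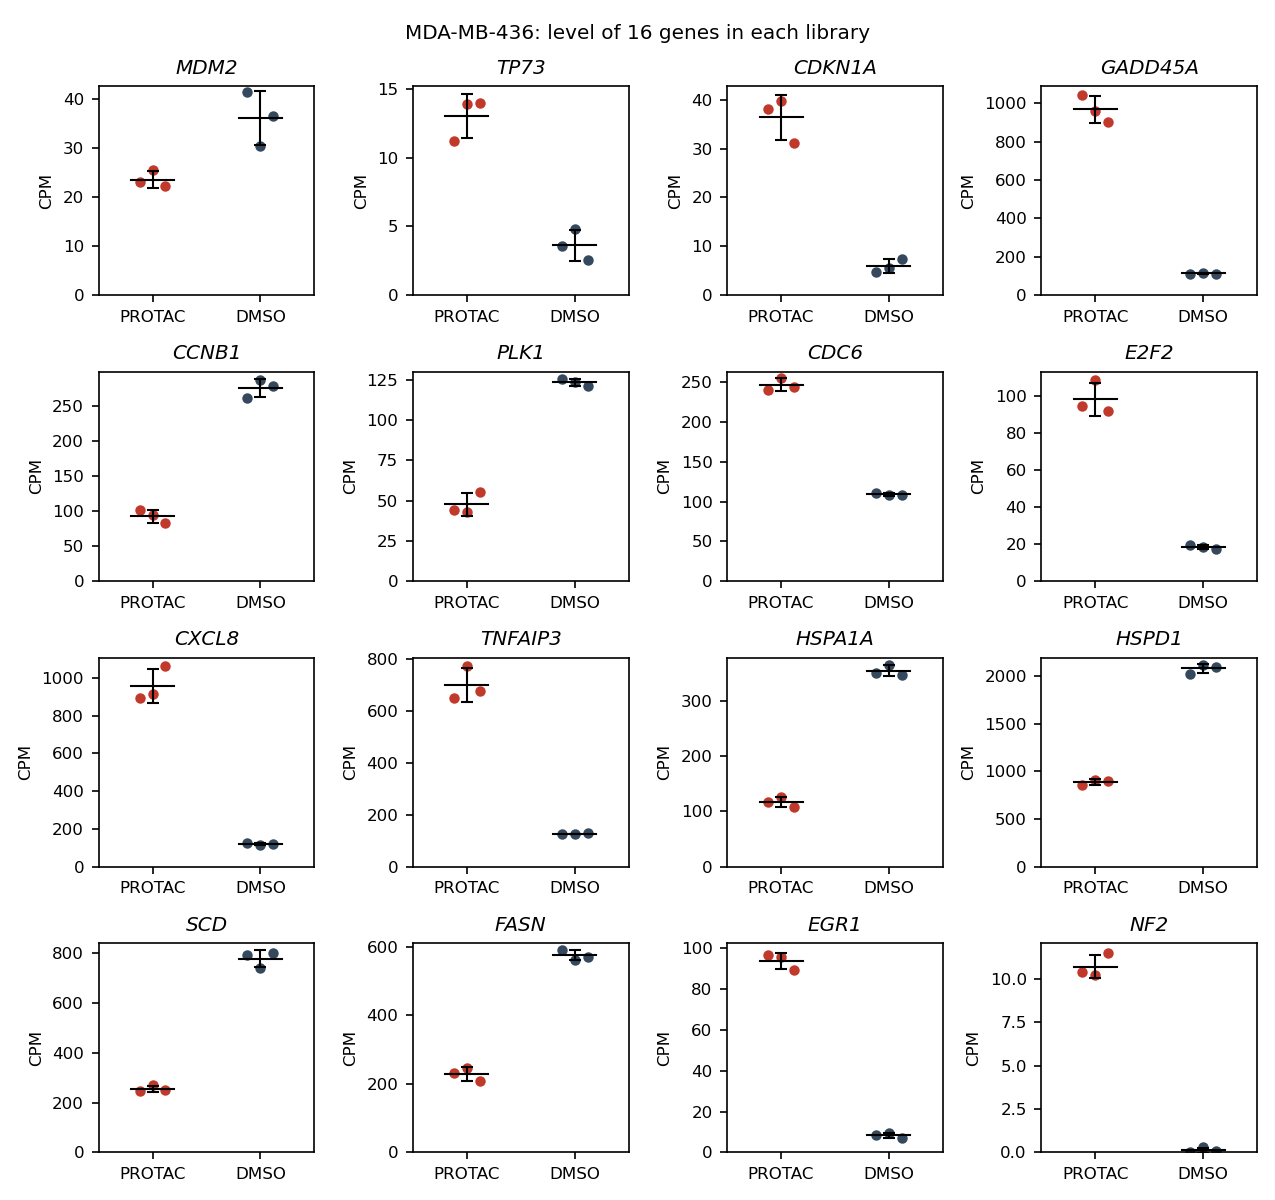
Level of 16 genes in each library of MDA-MB-436 (CPM, linear axes from 0; points are libraries, bars the mean ± SD, n = 3 a group). The PROTAC points lie apart from the DMSO points in each panel.

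NF-kB and cytokine genes had the largest median of the 33 lists, 1.42, with 19 of 30 called higher and 3 lower. The genes group by role. Among neutrophil chemokines, CXCL8 had 895, 916 and 1061 CPM in PROTAC libraries, against 126, 112 and 121 CPM in DMSO libraries (change 2.999 ± 0.08, edgeR adjusted p = 2.62e-09). The PROTAC libraries all stood over 7-fold above the DMSO libraries. CXCL3 (2.75 ± 0.11), CXCL2 (1.74 ± 0.09) and CXCL1 (1.66 ± 0.10) rose with it, as did the cytokine gene IL6 (1.48 ± 0.13). TNFAIP3, a deubiquitinase that NF-kB induces and that limits NF-kB signalling, had 648, 772 and 677 CPM with PROTAC, against 124, 125 and 128 CPM with DMSO (change 2.47 ± 0.07). Subunits of the factor itself, RELB (1.79 ± 0.20), NFKB2 (1.46 ± 0.08) and NFKB1 (0.83 ± 0.07), rose. NFKBIA, the inhibitor that NF-kB also induces, fell (-0.33 ± 0.10), as did IL1B (-0.44 ± 0.05) and LIF (-0.66 ± 0.06). TNF and CSF2 rose from low levels: TNF had 1.08, 0.870 and 0.970 CPM with PROTAC, against 0.106, 0.215 and 0.293 CPM with DMSO. TNFAIP3, IL6 and LIF overlap a gene on the other strand. The leukocyte markers were read beside these genes: 5 of 11, CD3E, CD3D, MS4A1 and CD247 among them, were at 0 in all 6 libraries and PTPRC at or under 0.220 CPM, while the sum over the list was 48.5 to 61.3 CPM with PROTAC and 30.2 to 30.9 CPM with DMSO. ITGAM had 17.5, 24.1 and 18.3 CPM in PROTAC libraries, against 2.30, 2.14 and 2.05 CPM in DMSO libraries. CD68 had 22.8, 22.6 and 34.9 CPM in PROTAC libraries, against 16.4, 17.5 and 17.02 CPM in DMSO libraries. CD14 went the other way, with 6.88, 5.79 and 7.26 CPM in PROTAC libraries, against 12.1, 10.5 and 10.99 CPM in DMSO libraries. In all 3 of the markers were called higher and 1 lower. The part of these markers in the rises above was not tested.

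The NF-kB letters (GGGA, 2 bases of any kind, then TTCC, on both strands) stood in 11 of 22 matched genes of this list (50%). Of all genes with promoters 1.97% had them. They were in 9 of the 15 called higher and 2 of the 7 others. The promoters of TNFAIP3 (chr6:137867009-137867308, plus strand) and CXCL3 (chr4:74038640-74038939, minus strand) show them in capitals, in either orientation; in CXCL3 overlapping matches run together.
TNFAIP3: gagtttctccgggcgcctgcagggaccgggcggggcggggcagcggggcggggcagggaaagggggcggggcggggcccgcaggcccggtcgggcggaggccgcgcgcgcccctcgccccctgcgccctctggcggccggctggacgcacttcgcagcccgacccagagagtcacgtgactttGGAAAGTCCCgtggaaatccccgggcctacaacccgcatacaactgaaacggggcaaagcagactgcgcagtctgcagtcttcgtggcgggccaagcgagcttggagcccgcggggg
CXCL3: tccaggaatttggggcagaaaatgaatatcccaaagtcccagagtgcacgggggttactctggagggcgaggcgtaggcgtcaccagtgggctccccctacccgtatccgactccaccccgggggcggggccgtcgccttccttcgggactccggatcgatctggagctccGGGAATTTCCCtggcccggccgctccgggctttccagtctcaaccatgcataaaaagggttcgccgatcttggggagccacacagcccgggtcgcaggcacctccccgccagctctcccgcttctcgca

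Interferon-stimulated genes were called in shares near those over all genes. Of 36 tested, 8 (22.2%) were called higher and 4 (11.1%) lower, against 17.3% and 15.1% of all genes, with a median of 0.10, and 14 were called higher with scaling by library totals. The transcription factor genes IRF7 and IRF1 rose, IRF7 with 35.6, 38.4 and 31.5 CPM in PROTAC libraries against 6.85, 8.74 and 8.65 CPM in DMSO libraries (change 2.12 ± 0.12) and IRF1 by 1.12 ± 0.09, as did the exonuclease gene ISG20 (1.07 ± 0.12). IFIT1, an RNA-binding effector, fell to 16.6, 15.6 and 15.7 CPM with PROTAC, against 28.7, 30.5 and 28.3 CPM with DMSO (change -0.87 ± 0.08), and BST2 (-0.77) and PARP9 (-0.80) fell too. Antigen presentation genes rose in part, 7 of 16 with 1 lower and a median of 0.33. HLA-E had 149, 151 and 119 CPM in PROTAC libraries, against 60.3, 61.4 and 60.8 CPM in DMSO libraries (change 1.20 ± 0.09), HLA-B changed by 0.79 ± 0.09, while the chaperone gene CALR fell (-0.59 ± 0.05). HLA genes resemble each other and vary between genomes, so reads can be split between them. IRF1, PARP9, CALR and HLA-B overlap a gene on the other strand, and HLA-B shares exons with another gene.

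Heat shock genes fell: of 20 tested, 18 were called lower, 1 higher and 1 not, with a median of -0.88; 2 were called higher with scaling by library totals. These chaperones fold proteins, and HSF1 drives many of them. HSPD1, the mitochondrial chaperonin, had 856, 914 and 896 CPM in PROTAC libraries, against 2026, 2121 and 2100.1 CPM in DMSO libraries (change -1.23 ± 0.04, edgeR adjusted p = 1.5e-08). HSP90AB1 had 1054, 1182 and 1139 CPM with PROTAC, against 2642, 2718 and 2627 CPM with DMSO (change -1.24 ± 0.05). In both genes the spread within a group was small beside the gap. The inducible HSP70 genes HSPA1A (-1.60 ± 0.07) and HSPA1B (-1.52 ± 0.07), near-identical copies that cannot be counted apart with certainty, and the constitutive HSPA8 (-1.61 ± 0.10) fell. HSF1 itself was at 0.19 and not called. HSPB8, a small heat shock protein of chaperone-assisted autophagy, rose to 61.3, 60.9 and 52.2 CPM with PROTAC, against 14.8, 15.6 and 14.5 CPM with DMSO (change 1.96 ± 0.11). HSPD1 and HSF1 overlap a gene on the other strand, and HSPA1B and HSPA8 share exons with another gene.

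The heat shock element was searched as GAA, 2 bases of any kind, TTC, 2 of any kind and GAA on both strands. It stood in 6 of 18 matched genes (33.3%), against 0.608% of all genes with promoters. All 6 were among the 17 matched genes called lower, and the 1 other matched gene lacked it. With 17 of 18 called lower, this split cannot tell genes with the element from genes without it. The promoters of HSPD1 (chr2:197499791-197500090, minus strand) and HSP90AB1 (chr6:44247693-44247992, plus strand) carry it in capitals, each with more than 1 match.
HSPD1: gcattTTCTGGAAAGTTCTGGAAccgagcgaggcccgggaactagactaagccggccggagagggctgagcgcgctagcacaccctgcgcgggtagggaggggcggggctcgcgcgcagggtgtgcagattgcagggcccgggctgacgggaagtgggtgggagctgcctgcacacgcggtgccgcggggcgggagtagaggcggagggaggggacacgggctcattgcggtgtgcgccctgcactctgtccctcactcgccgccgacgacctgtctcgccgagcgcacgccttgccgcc
HSP90AB1: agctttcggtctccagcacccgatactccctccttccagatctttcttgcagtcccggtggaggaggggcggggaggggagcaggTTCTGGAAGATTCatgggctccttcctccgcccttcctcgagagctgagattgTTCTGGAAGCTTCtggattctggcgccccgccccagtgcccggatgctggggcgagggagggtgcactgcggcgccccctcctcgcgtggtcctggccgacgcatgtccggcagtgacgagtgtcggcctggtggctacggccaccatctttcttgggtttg

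In the endoplasmic reticulum list 10 of 22 genes were called lower and 3 higher, with a median of -0.37. HSPA5 (BiP), its main HSP70, fell to 551, 599 and 535 CPM in PROTAC libraries, against 1186, 1209.9 and 1169.9 CPM in DMSO libraries (change -1.08 ± 0.05), with PDIA4 (-1.06 ± 0.06), PDIA6 (-0.75 ± 0.05) and HYOU1 (-0.88 ± 0.08). The sensor gene ERN1 (0.78 ± 0.11) and its target XBP1 (0.62 ± 0.13) rose, as did DNAJB9 (0.74 ± 0.12). Of 27 genes of the ATF4 stress response and amino acid supply, 11 were called higher and 3 lower, with a median of 0.25. PPP1R15A (GADD34), a phosphatase subunit that restarts translation, had 459.9, 477 and 410.5 CPM with PROTAC, against 111, 122 and 109 CPM with DMSO (change 1.98 ± 0.07). DDIT3 (CHOP) had 44.0, 46.5 and 37.5 CPM with PROTAC, against 10.6, 10.9 and 10.6 CPM with DMSO (change 1.997 ± 0.10). Subunits of amino acid transporters parted, with SLC3A2 higher (1.35 ± 0.10) and its partner SLC7A5 lower (-0.87 ± 0.05), and ATF4 itself was at -0.04. PDIA6, HYOU1, DNAJB9, DDIT3 and SLC7A5 overlap a gene on the other strand, and DDIT3 shares exons with another gene.

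Lipid synthesis genes were lower. Of 16 genes of fatty acid synthesis 13 were called lower and 0 higher (1 with scaling by library totals), with a median of -0.73, and of 23 of sterol synthesis and uptake 14 were called lower and 3 higher, with a median of -0.47. With scaling by library totals 9 sterol genes were called lower. SCD, the desaturase that makes oleic acid, had 247, 269 and 249.9 CPM in PROTAC libraries, against 793, 738 and 798 CPM in DMSO libraries (change -1.61 ± 0.06, edgeR adjusted p = 1.02e-08). FASN, the fatty acid synthase, changed by -1.33 ± 0.06, the carboxylase gene ACACA by -1.33 ± 0.10 and FADS2 by -1.55 ± 0.06. In the sterol list, HMGCS1, an early enzyme of cholesterol synthesis, had 40.6, 47.6 and 26.9 CPM with PROTAC, against 107, 106 and 122 CPM with DMSO (change -1.54 ± 0.16), and INSIG1, which restrains the pathway when sterols are ample, changed by -1.47 ± 0.24. For all 6 genes the PROTAC libraries lay below the DMSO libraries. ABCG1, an exporter of cholesterol (1.47 ± 0.15), and MVK, the mevalonate kinase (1.24 ± 0.15), were among the 3 that rose. FADS2, HMGCS1 and MVK overlap a gene on the other strand, and FADS2 shares exons with another.

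Redox and carbon metabolism genes were mostly lower too. Of 23 targets of NRF2, the factor of the oxidant response, 13 were called lower and 2 higher, with a median of -0.50, and 1 was called higher when the first PROTAC, the second PROTAC, the second DMSO or the third DMSO library was left out. NQO1 had 128, 121 and 104 CPM with PROTAC, against 208, 219.7 and 211 CPM with DMSO (change -0.86 ± 0.07), and GCLM, of glutathione synthesis, changed by -1.01 ± 0.09. Of 33 glycolytic and hypoxia genes 21 were called lower and 4 higher, with a median of -0.49; 2 were called higher without the second PROTAC or the first DMSO library and 1 without the third DMSO library. PGK1 had 504, 534 and 471 CPM in PROTAC libraries, against 1053, 1113 and 1092 CPM in DMSO libraries (change -1.11 ± 0.05), HK1 changed by -1.22 ± 0.15 and PKM by -0.62 ± 0.06. The hypoxia genes parted, with CA9 lower (-1.30 ± 0.25) and VEGFA slightly higher (0.24 ± 0.08). Of 15 mitochondrially encoded transcripts 13 were called lower and 0 higher, with a median of -0.49, and 1 was called higher with scaling by library totals, without the third PROTAC library or without the second DMSO library. MT-RNR2 had 8624, 8918 and 7909 CPM with PROTAC, against 11686, 12168 and 12093 CPM with DMSO (change -0.50 ± 0.05). MT-ATP6 was not called; its first PROTAC library had 937 CPM and the others 3747 and 3870.2 CPM. MT-ATP6 and PGK1 share exons with another gene, and NQO1, HK1, CA9 and VEGFA overlap a gene on the other strand. Of 32 nuclear genes of oxidative phosphorylation 14 were called lower and 3 higher, with a median of -0.24. Without the third PROTAC library 6 were called higher, and 1 was without either other PROTAC library or without the first or the third DMSO library. With scaling by library totals 7 were called lower and 5 higher, and without the first DMSO library 8 were called lower.

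Genes of protein turnover were read because a PROTAC works through them. Of 32 proteasome genes 12 were called lower and 3 higher, with a median of -0.16 that turned to 0.01 with scaling by library totals, where 8 were called higher. Without the third PROTAC library 5 were. The base subunits PSMC6 (-0.79 ± 0.08) and PSMD1 (-0.77 ± 0.06) fell and PSMC3 (0.60 ± 0.07) rose. Of 19 genes of the ligases that PROTACs commonly use, 7 were called lower and 1 higher, with a median of -0.16 that also turned to 0.01, where 4 were called higher; without the third PROTAC library 2 were, and the median was -0.33. The scaffolds CUL4A, with 288, 332 and 309 CPM in PROTAC libraries against 496, 517 and 505 CPM in DMSO libraries (-0.71 ± 0.06), CUL4B (-0.45 ± 0.06) and CUL2 (-0.99 ± 0.17) fell. The receptor gene DCAF15 rose (0.55 ± 0.12). The receptors CRBN and VHL did not pass: CRBN had 34.0, 34.1 and 43.7 CPM with PROTAC and 34.0, 36.5 and 37.0 CPM with DMSO, and VHL 50.1, 52.1 and 38.6 CPM with PROTAC and 48.4, 48.7 and 49.4 CPM with DMSO, both with overlapping groups. The labels do not say which ligase YX-2-30 recruits. Of 9 transcripts of proteins that cereblon can degrade in the presence of its drugs, 1 was called higher (11.1%) and 2 lower (22.2%). Over all genes 17.3% were called higher and 15.1% lower. SALL4 rose (1.82 ± 0.30) and ZNF276 (-0.43 ± 0.09) and CSNK1A1 (-0.25 ± 0.06) fell, the last no longer called with scaling by library totals. The list median of -0.13 was 0.04 with that scaling, 0.03 without the first DMSO library and 0.06 without the second PROTAC library. It stayed below 0 when any other single library was left out. PSMD1, CUL4A, DCAF15, CRBN and ZNF276 overlap a gene on the other strand, and CSNK1A1 shares exons with another gene. Only RNA was measured, so degradation of any protein is not seen here.

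Of 55 ribosomal protein genes 10 (18.2%) were called lower and 0 higher, with a median of -0.11, beside 15.1% of all genes called lower. Those counts moved with single libraries. Without the third PROTAC library 9 were called lower and 9 higher, and the median was -0.00. Without the first PROTAC library 21 were called lower and the median was -0.21, and without the second DMSO library 5 were called lower. RPL7 had 955, 891 and 825 CPM in PROTAC libraries, against 1079.8, 1146 and 1073 CPM in DMSO libraries (change -0.30 ± 0.06), and was no longer called with scaling by library totals, where 2 members were called lower and 4 higher. Of 31 genes of ribosome biogenesis 9 were called lower and 5 higher, with a median of -0.09 that turned to 0.07 with that scaling, where 9 were called higher. Without the third PROTAC library 9 were called higher as well, and 3 were without the first or the second. The nucleolar proteins NCL (-0.79 ± 0.07) and NPM1 (-0.57 ± 0.07) and the RNA polymerase I subunit POLR1A (-0.72 ± 0.10) fell, while RRP12 rose (0.74 ± 0.08). In the list of abundant noncoding RNAs 7 of 18 were called higher and 2 lower, with a median of 0.10; 1 was called lower with scaling by library totals and without any 1 of the DMSO libraries. GAS5, a host gene of small nucleolar RNAs, had 304, 311 and 299 CPM with PROTAC, against 106, 104 and 98.1 CPM with DMSO (change 1.56 ± 0.05, edgeR adjusted p = 9.1e-09), SNHG12 changed by 2.54 ± 0.11, SNHG15 by 1.32 ± 0.12 and SNHG1 by 1.05 ± 0.09. MALAT1 and NEAT1 were not called, at 0.39 and 0.06. RRP12, GAS5, SNHG12 and MALAT1 overlap a gene on the other strand, and SNHG12, SNHG15, SNHG1, MALAT1 and NEAT1 share exons with another gene.

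Of the immediate-early, AP-1 and MAPK feedback genes, 18 of 32 were called higher and 4 lower, with a median of 0.66; with scaling by library totals 1 was called lower. EGR1, a zinc finger factor induced within minutes of a stimulus, had 96.5, 95.6 and 89.0 CPM in PROTAC libraries, against 8.34, 9.30 and 7.23 CPM in DMSO libraries. Every PROTAC library was over 9-fold above every DMSO library (change 3.50 ± 0.10, edgeR adjusted p = 4.48e-09). EGR2 (2.78 ± 0.36) and EGR3 (2.24 ± 0.37) rose, and KLF10 (1.92 ± 0.06), FOS (1.44 ± 0.27) and the MAP kinase phosphatase genes DUSP8 (1.79 ± 0.11), DUSP6 (1.75 ± 0.20) and DUSP1 (1.15 ± 0.08) with them. FOSL1 fell (-0.41 ± 0.13). Among 30 genes of Notch signalling, ID and MAF factors, 13 were called higher and 5 lower, with a median of 0.14. That median was 0.39 without the third PROTAC library and -0.01 without the first. It lay between 0.10 and 0.22 when any other single library was left out. MAFF, a small MAF, had 188, 149.7 and 223 CPM with PROTAC, against 25.2, 23.7 and 20.9 CPM with DMSO (change 3.01 ± 0.40). The Notch ligand gene DLL4 (1.74 ± 0.38) and target HES1 (1.30 ± 0.12) rose, the receptors NOTCH1 (-0.64 ± 0.07), NOTCH2 (-0.43 ± 0.13) and NOTCH3 (-0.63 ± 0.12) fell, and ID1, an inhibitor of DNA binding, fell (-1.63 ± 0.20) while ID2 rose (1.22 ± 0.26). EGR3, DUSP6 and ID2 overlap a gene on the other strand.

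Matrix, integrin and protease genes were lower, 24 of 44 with 4 higher and a median of -0.57. LAMA5, a laminin chain of basement membranes, had 149.7, 180.2 and 168 CPM in PROTAC libraries, against 453, 449 and 455 CPM in DMSO libraries (change -1.45 ± 0.06), the collagen cross-linker LOXL2 changed by -1.47 ± 0.07 and the integrin ITGA3 by -1.32 ± 0.06. LAMB3, a chain of laminin 332, was the opposite, with 129, 165 and 105 CPM with PROTAC, against 17.8, 22.3 and 17.2 CPM with DMSO (change 2.80 ± 0.16), and LAMA3 of the same laminin rose (0.92 ± 0.16). Of 31 YAP and TGF-beta targets 13 were called lower and 5 higher, with a median of -0.35 (-0.22 without the third DMSO library). THBS1 (-1.11 ± 0.11), TGFB2 (-0.98 ± 0.10) and SMAD3 (-0.95 ± 0.06) fell and ANKRD1 rose (2.35 ± 0.20). Mesenchymal and epithelial genes were mixed, with 7 of 32 higher (21.9%), 8 lower (25%) and a median of -0.32, which was -0.09 without the first DMSO library, -0.13 without the third and -0.12 without the first PROTAC library. CD44 (-0.82 ± 0.07), VIM (-0.57 ± 0.08) and CDH2 (-0.63 ± 0.06) fell, and so did the epithelial keratins KRT8 (-0.91 ± 0.12) and KRT18 (-0.73 ± 0.07), while KRT7 (1.56 ± 0.25), KRT17 (1.19 ± 0.16) and SNAI2 (1.40 ± 0.41) rose. Of 29 autophagy and lysosome genes 9 were called higher and 4 lower, with a median of 0.16, and 15 were called higher with scaling by library totals. The lysosomal channel gene MCOLN1 rose (0.87 ± 0.10), and ATG7 fell (-0.71 ± 0.07). LAMA5, LOXL2, THBS1, SMAD3, CD44, VIM, CDH2, KRT7, KRT8, KRT18 and ATG7 overlap a gene on the other strand, and LAMA5, LOXL2, LAMB3, TGFB2 and MCOLN1 share exons with another gene.

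Of the protein-coding genes that were called, averaged 1 CPM or more and had groups without overlap, the 10 with the largest rises had low levels in DMSO libraries, 5 of them at 0 throughout. CAMK1G, a calcium-dependent kinase gene, had 3.71, 3.13 and 3.16 CPM in PROTAC libraries and 0 counts in the 3 DMSO libraries, at least 181-fold higher if 3 counts, a limit for a count of 0, are taken for the DMSO group as a whole. WDFY4, of antigen cross-presentation, had 2.89, 3.29 and 3.08 CPM with PROTAC and 0 counts with DMSO, at least 172-fold higher. The myosin gene MYH2 and the potassium channel gene KCNB2 were each at least 156-fold higher by the same limit. NF2 (merlin), a tumour suppressor upstream of YAP, had 10.4, 10.2 and 11.5 CPM in PROTAC libraries, against 0, 0.304 and 0.0650 CPM in DMSO libraries (change 6.38 ± 0.58, edgeR adjusted p = 9.03e-06). The chemokine gene CCL4 had 14.01, 12.3 and 8.98 CPM with PROTAC, against 0.0851, 0.268 and 0.195 CPM with DMSO, and the scramblase-family gene ANO9 23.8, 20.7 and 22.7 CPM with PROTAC, against 0.532, 1.36 and 0.894 CPM with DMSO. ARHGAP40 (5.32 ± 0.82) and EGFL6 (5.32 ± 0.59) completed the list with an unnamed gene that shares exons with others (ENSG00000255641), at least 83.1-fold higher but with 0.525 to 5.51 CPM among its PROTAC libraries. Such limits cover counting error only. More genes sat at 4 counts than at 3 or 5 in every library, by 1.2 to 1.55 times their mean, so a count need not be an independent fragment.

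In all, 34 genes, 23 of them protein-coding, had at least 1 CPM in every PROTAC library and under 0.35 CPM in every DMSO library, and 2 genes, PLPP7 and MIR3142HG, had the reverse. That choice used these libraries, so their calls are no support. Of the 34, 32 were also called with the hairpin in the same line (libraries labelled MDM2 shRNA), where 16% of all genes were called higher, and 1, RFPL4A, was called higher with PROTAC in MDA-MB-231, where 7.45% were. Several of the 34, among them WDFY4, KCNB2, MYH2, CCL4 and EGFL6, had a change of 0 ± 0 in MDA-MB-231. Such genes could not be called there, so that count is no measure of a missing response.

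Among the protein-coding genes that fell, MMP3, a stromelysin that cleaves matrix, had 0.601, 0.476 and 0.166 CPM in PROTAC libraries, against 3.45, 3.08 and 3.50 CPM in DMSO libraries (change -2.95 ± 0.33, edgeR adjusted p = 4.08e-05), and IGFBP5, which binds insulin-like growth factors, had 1.25, 1.25 and 0.527 CPM with PROTAC, against 7.41, 6.60 and 8.78 CPM with DMSO (change -2.88 ± 0.33). Their libraries did not overlap. The somatostatin receptor gene SSTR1 (-2.44 ± 0.51) and the kinase gene MAP2K6 (-2.38 ± 0.67) were lower. GPRASP2 (-2.83 ± 0.68), ENSG00000258790 (-3.76 ± 0.82), ZBED6 (-2.76 ± 0.82), PCDHGA4 (-2.99 ± 1.04) and PCDHGA1 (-2.41 ± 0.85) share exons with other genes, and the last 3 were no longer called without the third PROTAC or the third DMSO library. PCDHGA4 and ZBED6 were also lost without the first DMSO library, and PCDHGA4 and PCDHGA1 without the second PROTAC library. Among genes that are not protein-coding, EGOT (6.81 ± 0.84) and the pseudogene A2MP1 (5.62 ± 0.47) were among the largest rises. MIR3142HG, a host gene of microRNAs, had 0 counts in the PROTAC libraries and 4.85, 5.02 and 4.93 CPM in DMSO libraries, at least 372-fold lower. MMP3, IGFBP5 and A2MP1 overlap a gene on the other strand. MIR3142HG shares exons with another gene and was no longer called when any of the 6 libraries was left out.

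The share of genes called lower was larger among longer genes. Among protein-coding genes the share called lower was 12.3% for 3061 genes spanning up to 10 kb, 16.3% for 4248 of 10 to 30 kb, 22.1% for 4970 of 30 to 100 kb, 30.2% for 2448 of 100 to 300 kb and 27.5% for 657 over 300 kb. The share called higher went the other way, with 22.8%, 24.4%, 19.9%, 15.1% and 11.7% in the same order. The median change was 0.11, 0.10, -0.00, -0.16 and -0.14. In MDA-MB-231 the genes over 300 kb had a median of -0.70 with PROTAC and 39.9% were called lower, while with the hairpin in MDA-MB-436 (libraries labelled MDM2 shRNA) their median was 0.02. These values are a description with no test.

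**Figure D4:**
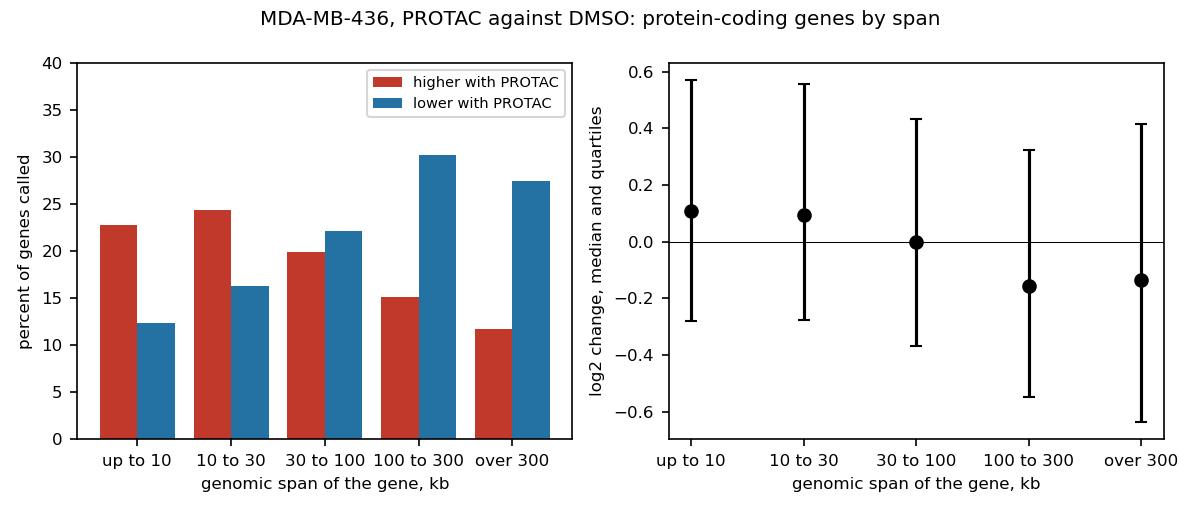
Protein-coding genes of MDA-MB-436 by genomic span (5 bins, kb, shortest to longest). Left, percent of genes called higher or lower with PROTAC; right, median log2 change with quartiles as bars. The share called lower is 12.3% in the shortest bin and 30.2% in the bin of 100 to 300 kb.

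The PROTAC change was set against that of the MDM2 hairpin in the same line, whose controls are separate libraries. MDM2 RNA was not called lower there, in libraries labelled MDM2 shRNA (change -0.11 ± 0.22, edgeR adjusted p = 0.78), so its level does not bear out that label. There 6896 genes (30.4%) were called, and 5477 were called in the same direction in both comparisons, which is 74.7% of the PROTAC calls and 79.4% of the hairpin calls. Of the PROTAC calls, 97.8% had the same sign with the hairpin, and Spearman's rho over 22663 genes was 0.67, as a description across genes that are not independent. The test of the difference called 1 gene (0.00441%), RAB43, and 1230 genes (5.43%) had an unadjusted p under 0.05; DESeq2 called 35. Without the second PROTAC library 2203 genes (9.26%) had an unadjusted p under 0.05 and 25 were called, and without the third 2631 (11.1%) had one and 5 were called. RAB43, a small GTPase of the Golgi, had 16.1, 18.6 and 17.7 CPM in PROTAC libraries against 28.9, 30.2 and 26.3 CPM in DMSO libraries, and 19.5, 17.5 and 19.6 CPM in the libraries labelled MDM2 shRNA against 9.61, 7.41 and 8.41 CPM with the non-targeting shRNA. The treated groups lay close together and the controls apart (difference -1.86 ± 0.16, edgeR adjusted p = 0.00378), and RAB43 shares exons with another gene. In the libraries labelled MDM2 shRNA, 32 of 36 replication genes were called higher, 18 of 20 heat shock genes and 26 of 37 mitotic genes lower, and 20 of 30 NF-kB genes higher, where 16% of all genes were called higher and 14.4% lower.

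The same PROTAC was given to MDA-MB-231. The change differed between the lines for 5508 of 24719 genes (22.3%), of which 2910 (11.8%) were more positive in MDA-MB-436 and 2598 (10.5%) more negative. Genes called in the same direction in both lines numbered 1363, which is 18.6% of the calls in MDA-MB-436 and 39.6% of those in MDA-MB-231. Spearman's rho over the 22663 genes tested in MDA-MB-436 was 0.09. Those genes include some, such as WDFY4, with a change of 0 ± 0 in MDA-MB-231. In MDA-MB-231, 7.45% of the genes tested in MDA-MB-436 were called higher and 7.74% lower. The lists parted by kind. Heat shock genes fell in MDA-MB-436 and had a median of 0.04 in MDA-MB-231, and the difference was called negative for 17 of 20; HSPA1A changed by -1.60 ± 0.07 in MDA-MB-436 and by 0.03 ± 0.06 in MDA-MB-231 (difference -1.62 ± 0.09, edgeR adjusted p = 1.52e-10). Immediate-early genes had 18 of 32 positive differences, EGR1 by 3.16 ± 0.16, and replication genes 20 of 36, although 17 replication genes were called higher in MDA-MB-231 too. Fatty acid synthesis had 11 of 16 negative differences, NRF2 targets 13 of 23 and proteasome genes 12 of 32. Mitotic genes were lower in both lines, 27 of 37 in MDA-MB-436 and 19 of 37 in MDA-MB-231, and the difference was called for 17; that of PLK1 was -0.06 ± 0.11. GADD45A differed by 2.67 ± 0.12 and NF2 by 6.78 ± 0.68. TP73 rose by 1.84 ± 0.27 in MDA-MB-436 and changed by 0.21 ± 0.21 in MDA-MB-231 (difference 1.64 ± 0.30, edgeR adjusted p = 0.000416), and CDKN1A rose in both lines, by 2.63 ± 0.16 in MDA-MB-436 and by 1.36 ± 0.29 in MDA-MB-231 (difference 1.28 ± 0.41, edgeR adjusted p = 0.0299). Interferon genes leaned the other way, with 8 of 36 called higher in MDA-MB-436, 22 in MDA-MB-231 and 13 negative differences. Of 38 histone genes, 9 were called lower in MDA-MB-231 and the difference was called positive for 10; in MDA-MB-436 0 were called in the fit of that line and 6 were called higher in the fit of all 24 libraries. Line, culture and dose cannot be told apart in this difference, since the labels give no dose.

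**Figure D5:**
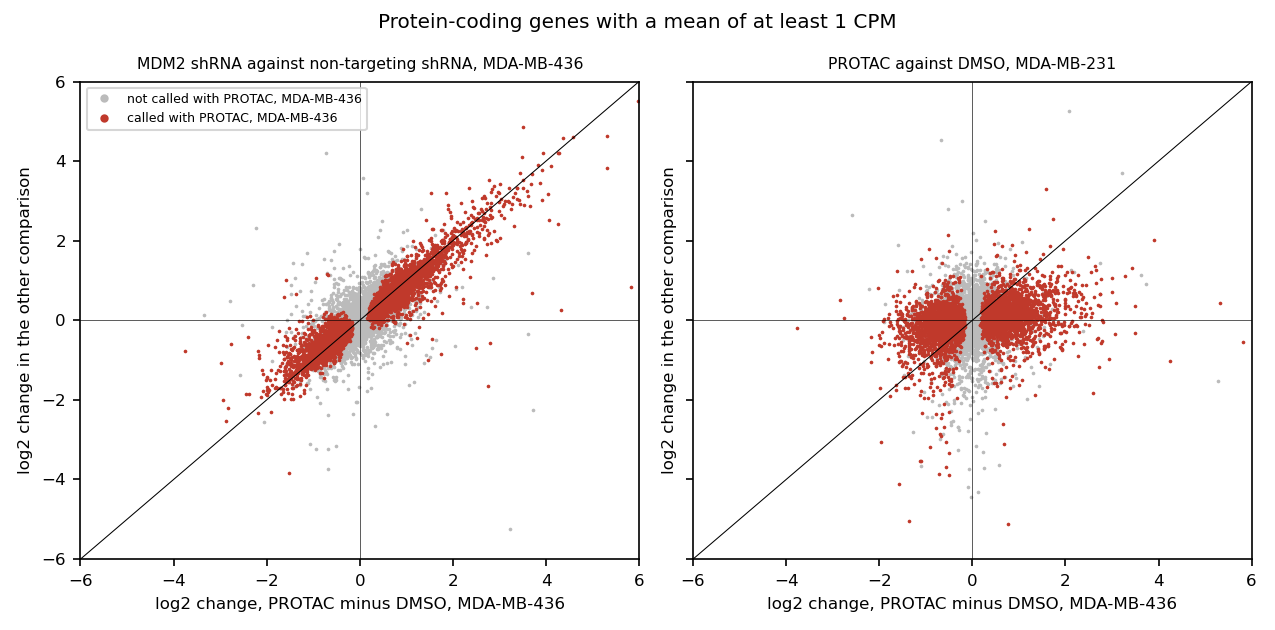
Log2 change with PROTAC in MDA-MB-436 (x axis) against the change with the MDM2 hairpin in the same line (left, 12903 genes) and with PROTAC in MDA-MB-231 (right, 11657 genes averaging 1 CPM or more there), for protein-coding genes; red points were called with PROTAC in MDA-MB-436, the line marks equal change, and 12 and 8 genes lie outside the axes. Points follow the line on the left and spread around 0 on the right.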

How the data were processed

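RNA of MDA-MB-436 and MDA-MB-231 cells was sequenced in 24 libraries, 3 a group. Per the labels, TRIzol was used for RNA and a NEBNext Ultra II kit for libraries; the strand of counting is not given in the sources used here. The submitters' processing notes name cutadapt 2.4, HISAT2, StringTie, edgeR and the build GRCh38, without their roles. The authors deposited raw gene-level counts, 1 file a library, for 60675 Ensembl identifiers, of which 57055 were in GENCODE 29.

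From these counts, genes passing filterByExpr over the 12 MDA-MB-436 libraries (22663) were scaled by TMM and tested with edgeR 4.0.16 (quasi-likelihood test, group means, 8 residual degrees of freedom, R 4.3.3), with Benjamini-Hochberg adjustment over all of them and a threshold of 0.05. The standard error is the log2 change divided by the root of F. The difference from the hairpin used the same fit, and the difference between lines a fit of all 24 libraries (24719 genes, 16 residual degrees of freedom). The step was tested on simulated counts. DESeq2 1.42.0 and limma 3.58.1 were among the 19 alternatives, with other filters, scalings and subsets of libraries. Same-numbered PROTAC and DMSO libraries did not deviate together, and no pair of libraries agreed within sampling noise (chi-square of 34.5 or more per gene).

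Genes named were MDM2, MDM4, TP73 and CDKN1A, the 10 largest rises and falls among called protein-coding genes and the 5 largest among other genes (mean of 1 CPM or more, groups not overlapping), per list at most 4 genes, those lowest in adjusted p, and the 5 largest called protein-coding differences each way in each test of a difference, 174 in all. Other genes were named after their values were seen. The members, the 33 lists (914 entries, 2 unmatched) and the tests were chosen with earlier results of these data known. Some genes of these lists are not reported here.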

Additional observations from a re-analysis of the deposited data

Results flagged for a closer look

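The PROTAC change differed between MDA-MB-436 and MDA-MB-231 for 5508 genes by the test of the difference. TP73 (difference of 1.64 on the log2 scale) and CDKN1A (1.28) were among them, both more positive in MDA-MB-436. The 5 most negative differences were AC009336.2 (-10.66), ALPK2 (-7.11), PTPN20 (-7.01), MGAT3 (-6.50) and HOXB13 (-6.30). All 5 had 0 CPM in the 3 DMSO libraries of MDA-MB-231, so these sizes depend on how the fit treats 0. ALPK2, an alpha kinase gene, had 25.2, 36.5 and 30.0 CPM with PROTAC against 78.6, 84.3 and 90.4 CPM with DMSO in MDA-MB-436, and at most 0.14 CPM in MDA-MB-231. AC009336.2 shares exons with another gene and varied within groups.

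The 5 most positive differences were ENSG00000267303 (13.26), C6orf58 (8.88), CD96 (8.55), CXCL11 (8.09) and DMC1 (8.01). C6orf58 had 13.6, 14.3 and 15.3 CPM with PROTAC against 1.09, 1.70 and 0.73 CPM with DMSO in MDA-MB-436. The meiotic recombinase gene DMC1 had 8.95, 9.38 and 9.90 CPM with PROTAC against 2.41, 2.32 and 3.06 CPM with DMSO there. C6orf58, CXCL11 and DMC1 were at 0 in the PROTAC libraries of MDA-MB-231 and at or under 0.34 CPM in its DMSO libraries. CD96 was at 0 in the DMSO libraries of MDA-MB-436 and at 0.38, 0.58 and 0 CPM with PROTAC there. Its call in MDA-MB-436 was lost when any DMSO library, or the first or second PROTAC library, was left out. ENSG00000267303, which shares exons with another gene, ranged from 0.62 to 20.1 CPM within the PROTAC group of MDA-MB-436, where its change was -0.65. In MDA-MB-231 it had 0 CPM in the PROTAC libraries and 37.3, 0 and 42.6 CPM in the DMSO libraries. These positive sizes also depend on how the fit treats 0.

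Against the hairpin in MDA-MB-436, 1 gene differed, RAB43 (-1.86), which was lower with PROTAC than with DMSO and higher in the libraries labelled MDM2 shRNA than in their controls.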

How the results depend on the processing

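Scaling by library totals left 2203 genes called lower. Leaving out genes with overlapping exons gave 2058 called higher and 1886 lower with PROTAC, 1500 and 1390 for the difference between lines and 0 lower for the difference from the hairpin, where fewer genes were tested. MDM2 passed the threshold with a 1 CPM filter (-0.60), with DESeq2 (-0.62) and with the 6 libraries alone (-0.60); the cause was not tested. DESeq2 called 13 genes higher and 22 lower for the difference from the hairpin. The 6 libraries alone gave 2980 genes called higher and 2404 lower with PROTAC, 9 lists and 22.2% of genes over 300 kb called lower. At an adjusted p under 0.01 the difference between lines was called for 1834 genes higher and 1704 lower. Leaving out 1 library at a time gave 3269 to 4161 genes called higher and 2693 to 3648 lower, MDM2 at -0.71 to -0.49, TP73 at 1.65 to 2.10, CDKN1A at 2.50 to 2.86, 10 to 15 lists, 21.9 to 29.7% of genes over 300 kb called lower, 2514 to 3446 and 2236 to 2885 genes for the difference between lines, and 0 to 14 and 1 to 11 for that from the hairpin. Over 174 named genes and 19 alternatives, 3123 values kept direction and call, 55 lost the call, 20 gained it and 5 changed sign. AC009336.2 (0.09) turned to -0.73 with limma voom, -0.35 with the replicate block, -0.08 without the second DMSO library, -0.66 without the third PROTAC library and 0.62 without the first, and ENSG00000267303 (-0.65) to 0.96 without the third DMSO library and -3.73 without the second PROTAC library; neither was called in the reported fit. The third PROTAC library had the lowest total count of the 6; whether this depth touches genes of low level more was not tested.

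With the replicate number as a block, 3615 genes were called higher and 3262 lower. Deviations of same-numbered PROTAC and DMSO libraries correlated at -0.009, -0.009 and -0.030, so the numbers were not taken to pair the libraries.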
